A study of Mus musculus with 18 samples.

Results

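The 9 genes described here, *Lgr5*, *Olfm4*, *Ascl2*, *Smoc2*, *Slc14a1*, *Aqp4*, *Gkn3*, *Dach1* and *Rgmb*, are active crypt base stem cell genes of the mouse small intestine. They were taken by name, and all 9 were found among the 16414 genes listed at every time point. Levels were read in 18 bulk RNA libraries of the duodenum, from 3 WT (Mtgr1+/+) mice and 3 mice labelled *Mtgr1*-/-. Each mouse gave freshly isolated crypts, enteroids 24 hours after plating (day 1) and enteroids 72 hours after plating (day 3), so that every genotype had 3 libraries at each of 3 time points. Per the methods of the study, the mice were littermates of both sexes, 8 to 12 weeks old, and the knockout was in the whole animal. Enteroids are 3-dimensional epithelial cultures grown from crypts in a gel, without the surrounding tissue. A crypt library holds the epithelium of the whole crypt, and markers of enterocytes and immune cells were read in it too. Stem cells thus make up only a part of its RNA.

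Crypt base columnar cells sit between the Paneth cells at the bottom of the crypt and divide to renew the epithelium. Their state is maintained by Wnt signals, which R-spondin amplifies through receptors of the LGR family, and is opposed by BMP signals that grow stronger towards the villus. *Lgr5* encodes such an R-spondin receptor, and *Ascl2* a basic helix-loop-helix transcription factor downstream of Wnt. *Olfm4* and *Smoc2* encode secreted matrix proteins, *Aqp4* and *Slc14a1* channels for water and urea, *Dach1* a transcriptional cofactor and *Rgmb* a co-receptor of the BMP pathway, while *Gkn3* encodes a secreted gastrokine. MTGR1 is a transcriptional co-repressor of the MTG family, encoded in the mouse by *Cbfa2t2*.

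Values are gene counts divided by 1 factor per library, called normalized counts below. Reads on genes could be recovered for 16 of 18 libraries and lay between 22035316 and 28621990, with a median of 26258539. A gene was called at an adjusted p below 0.05, from limma on log2(normalized count + 1) with Benjamini-Hochberg adjustment over all genes tested at a time point. Fold changes on this scale are understated for genes with few reads. *Cbfa2t2* was 614, 523 and 595 in WT and 697, 466 and 534 in the crypts labelled *Mtgr1*-/-, with a log2 fold change of -0.047 (SE 0.17, adjusted p = 0.917). At day 1 it was 788, 710.2 and 757 against 1160.3, 1008 and 789, with 0.37 (SE 0.14, adjusted p = 0.0557), and at day 3 869, 774 and 883 against 892, 976 and 766, with 0.056 (SE 0.11, adjusted p = 0.686). The level of the targeted gene thus does not check the labels, and libraries are named here by their label. The deposited values are per gene and cannot show which exons were read. Epithelial genes such as *Epcam* and *Vil1* were high in all 18 libraries, with summed normalized counts of 8 markers between 146953 and 377451.

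In WT crypts, the level per kilobase of merged exon was led by *Olfm4*, at 10117 ± 1293 (SD, n = 3) normalized counts per kilobase, followed by *Smoc2* at 285 ± 31.2 and *Aqp4* at 207 ± 40.2. *Rgmb*, at 141 ± 16.8, *Gkn3*, at 90.7 ± 50.9, and *Ascl2*, at 89.2 ± 11.8, formed the middle of the order. *Dach1*, at 44.9 ± 7.62, *Slc14a1*, at 37.3 ± 16.4, and *Lgr5*, at 24.9 ± 3.42, had the lowest levels. The libraries of neighbours in this order overlapped for *Smoc2* and *Aqp4*, *Rgmb* and *Gkn3*, *Gkn3* and *Ascl2*, *Dach1* and *Slc14a1*, and *Slc14a1* and *Lgr5*, and did not overlap for the other 3 pairs of neighbours. *Lgr5*, the gene by which these cells are most often recognised, thus had the lowest mean level per kilobase of the 9 in WT crypts. This place depends on its merged exon length of 10.264 kilobases, the longest of the 9. In mean normalized counts, *Lgr5* (256) stood above *Slc14a1* (149), *Ascl2* (145) and *Gkn3* (77.6), and below the other genes.

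In crypts, the 9 genes did not move as a block. *Olfm4*, *Dach1*, *Aqp4* and *Rgmb* were lower in the libraries labelled *Mtgr1*-/-, while *Lgr5*, *Ascl2*, *Smoc2*, *Slc14a1* and *Gkn3* did not pass the test. The 4 of 9 genes called lower stand beside 3.15% of all 12980 genes tested, and 0 of 9 were called higher, beside 1.58% of all genes. At an unadjusted p below 0.05, 5 of the 9 were lower and 0 higher with limma, and edgeR and DESeq2 on recovered reads likewise called 0 of 9 higher. The libraries labelled *Mtgr1*-/- all lay below every WT library for 5 of 9 genes, *Slc14a1* being the fifth, beside 13.5% of all genes. The median log2 fold change of the 9 was -1.18, and that of all genes 0.0076. In bulk RNA, fewer cells of a type and less RNA per cell cannot be told apart, in this and every following comparison.

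The R-spondin receptor *Lgr5* (ENSMUSG00000020140.15, GRCm38 chr10:115450311-115587780, minus strand) had normalized counts of 242, 229.7 and 296 in WT crypts and 388, 562 and 211 in those labelled *Mtgr1*-/-. The first and second of the latter lay above all WT libraries and the third below them, so the groups overlapped. The log2 fold change was 0.49 (SE 0.34, adjusted p = 0.497), with a 95% interval of -0.31 to 1.3 that spans 0. The transcription factor gene *Ascl2* (ENSMUSG00000009248.6, chr7:142966829-142969264, minus strand) had 156, 123 and 155 in WT and 153, 122 and 87.4 in the labelled crypts. Here too the groups overlapped, with a log2 fold change of -0.29 (SE 0.25, adjusted p = 0.587) and an interval of -0.87 to 0.29. The matrix protein gene *Smoc2* (ENSMUSG00000023886.10, chr17:14279506-14404790, plus strand) stood at 2131, 2085 and 1735 in WT and at 1616, 2195 and 1143 in the labelled crypts, again with overlap. Its log2 fold change was -0.31 (SE 0.23, adjusted p = 0.535), with an interval of -0.85 to 0.24.

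*Olfm4* (ENSMUSG00000022026.7, GRCm38 chr14:79984081-80023139, plus strand), which encodes a secreted olfactomedin glycoprotein abundant in crypt base cells, changed most. WT crypts held 33032, 31199 and 25673 normalized counts and crypts labelled *Mtgr1*-/- 512, 296 and 133. No labelled library came near the lowest WT library, and the means differed 95.5-fold, with a log2 fold change of -6.77 (SE 0.44, adjusted p = 0.000621). *Dach1* (ENSMUSG00000055639.16, chr14:97786853-98169765, minus strand), a cofactor of homeodomain transcription factors, fell from 376, 344 and 267 in WT to 10.4, 19.0 and 7.11. The groups were far apart, with means 27.0-fold different and a log2 fold change of -4.73 (SE 0.37, adjusted p = 0.00129). *Rgmb* (ENSMUSG00000048027.9, chr17:15803188-15831039, minus strand), the BMP co-receptor, was 1146, 929 and 1158 in WT and 622, 625 and 513 in the labelled crypts. It thus fell to 54.4% of the WT mean without overlap, a log2 fold change of -0.87 (SE 0.13, adjusted p = 0.0156).

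Promoter sequence is shown for the 2 genes that fell most in crypts and for *Ascl2*, which did not pass the test there. All 9 genes were lower in the labelled enteroids at day 1 and day 3. RefSeq promoter windows, on GRCm38.p6, were searched for 5 of the 9 genes. None was searched for *Lgr5*, *Smoc2*, *Slc14a1* and *Aqp4*, which does not show that RefSeq lacks them. The 250 bases before each start were searched on both strands for CTTTGA and CTTTGT, letters of TCF/LEF sites, CAGCTG and CAGGTG, letters of E-boxes that basic helix-loop-helix factors read, and TGGGAA, letters of RBPJ sites of the Notch pathway. Matches in either orientation are in capitals, and each line runs 5′ to 3′ on the strand of the gene.
*Olfm4*, chr14:80000052-80000301, plus strand: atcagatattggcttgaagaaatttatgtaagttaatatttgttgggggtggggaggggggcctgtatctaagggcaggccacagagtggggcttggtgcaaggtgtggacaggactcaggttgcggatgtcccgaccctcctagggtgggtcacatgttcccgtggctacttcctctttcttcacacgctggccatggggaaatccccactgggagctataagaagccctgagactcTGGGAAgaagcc
*Dach1*, chr14:98169766-98170015, minus strand: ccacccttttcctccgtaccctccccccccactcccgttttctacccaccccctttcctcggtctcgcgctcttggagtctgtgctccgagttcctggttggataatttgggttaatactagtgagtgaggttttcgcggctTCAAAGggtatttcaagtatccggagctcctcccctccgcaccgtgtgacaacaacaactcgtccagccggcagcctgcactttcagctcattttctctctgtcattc
*Ascl2*, chr7:142969265-142969514, minus strand: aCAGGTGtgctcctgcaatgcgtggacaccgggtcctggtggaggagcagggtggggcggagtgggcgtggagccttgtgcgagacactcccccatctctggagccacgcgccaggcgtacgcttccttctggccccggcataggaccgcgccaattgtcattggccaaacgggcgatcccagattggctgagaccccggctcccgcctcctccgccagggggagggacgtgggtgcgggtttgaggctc
The *Olfm4* window held 1 TGGGAA, which 21.6% of 32851 RefSeq promoter windows of this length also hold, the *Dach1* window 1 CTTTGA (13.8% of windows), and the *Ascl2* window 1 CAGGTG (17.2% of windows). Of the others, *Gkn3* (chr6:87388936-87389185) held 1 CTTTGT (16.5% of windows), and 3 overlapping or nearby *Rgmb* windows held 1 CAGGTG, 1 CTTTGT and 0 matches. CAGCTG, found in 13% of windows, was in none of the windows searched for these 5 genes. No motif was shared by more than 2 of the 5 genes, and all 5 motifs are common in promoter windows at large. The RefSeq start used for *Olfm4* lies inside the gene model of the annotation behind the counts, which begins further upstream.

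Both channel genes were lower in level in the labelled crypts, and 1 of them passed the test. *Aqp4*, which encodes a water channel, had 1577, 1194 and 1106 in WT and 473, 641 and 281 in the libraries labelled *Mtgr1*-/-. No labelled library reached the lowest WT library, and the log2 fold change was -1.54 (SE 0.30, adjusted p = 0.0368). This call depends on single libraries and on the method: it was kept in 9 of 15 alternatives, with adjusted p between 0.00137 and 0.143. It was lost when any single WT library or the first labelled library was left out. The call was also lost with limma without the trend (adjusted p = 0.0752). It was lost with edgeR on recovered reads (adjusted p = 0.117), which had to leave out WT crypt library 2. Limma without that library gave an adjusted p of 0.110. *Slc14a1*, a urea transporter gene, had 105, 117 and 224 in WT and 36.7, 30.4 and 6.10 in the labelled crypts. The third labelled library was far below the other two, the third WT library far above, and the log2 fold change of -2.80 (SE 0.67, adjusted p = 0.0696) did not pass the test despite the lack of overlap. The gastrokine gene *Gkn3* (ENSMUSG00000030048.5, GRCm38 chr6:87383256-87388935, minus strand) had 55.6, 49.5 and 128 against 26.4, 65.6 and 16.3, with overlap and a log2 fold change of -1.18 (SE 0.59, adjusted p = 0.346). *Aqp4* (ENSMUSG00000024411.10, chr18:15389496-15410982, minus strand) and *Slc14a1* (ENSMUSG00000059336.14, chr18:78100091-78142119, minus strand) lie on the same chromosome.

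The third crypt library labelled *Mtgr1*-/- was the lowest of its group for 9 of 9 genes, and the second was the highest for 6 of 9. Summed over the 9 genes, the labelled crypts held 2399 to 4556 normalized counts and the WT crypts 30743 to 38822, most of the latter from *Olfm4*. WT crypt library 3 also stood apart, with 22687 normalized counts summed over 10 immune cell markers against 2231 and 2570.2 in the other WT crypts and 592 to 2656 in the labelled ones. Without it, 3 of 9 genes were called lower, *Olfm4*, *Dach1* and *Rgmb*. Without WT crypt library 1, only *Olfm4* and *Dach1* were called.

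**Figure D1:**
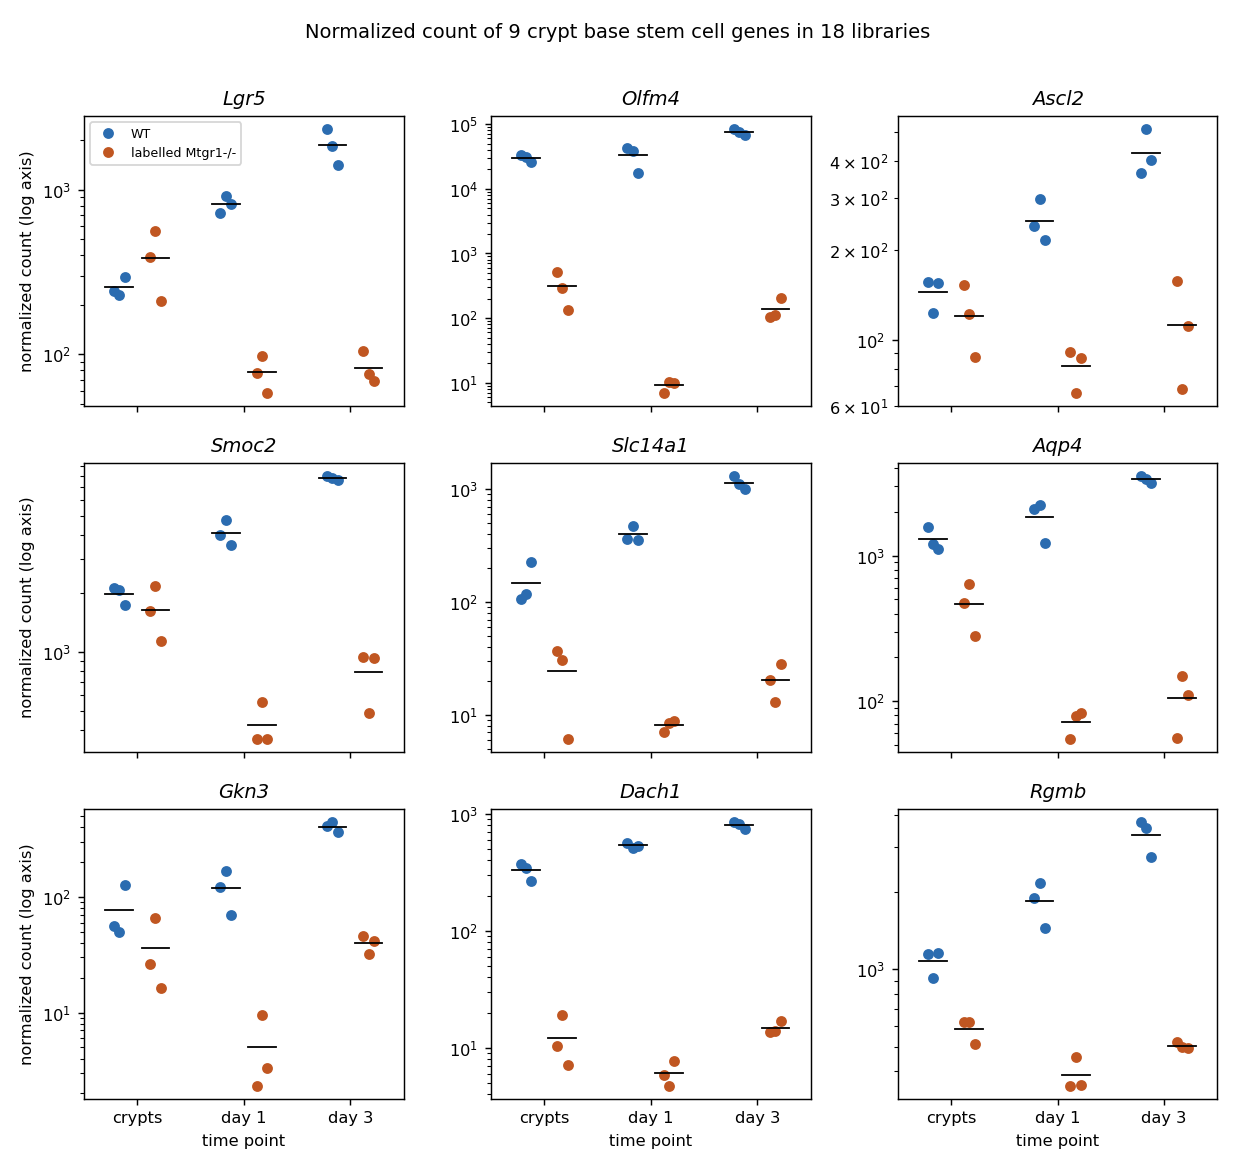
Normalized counts of the 9 genes on logarithmic axes, 1 panel per gene, in crypts, day 1 and day 3 enteroids. Each point is 1 library of 1 mouse (blue WT, orange labelled *Mtgr1*-/-) and each line the mean of 3; the groups overlap for 4 genes in crypts and for none at day 1 or day 3.

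At day 1, all 9 genes were lower in the enteroids labelled *Mtgr1*-/-, each without overlap between the genotypes. Over all 12587 genes tested, 28.9% were called lower, 30% higher, and 33.9% had all 3 labelled libraries below every WT library. The median log2 fold change of the 9 was -4.42, and that of all genes -0.008. All 9 remained called in each of the 15 alternatives, including the count tests and the fits without 1 library.

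*Lgr5* at day 1 had 725, 914 and 816 normalized counts in WT and 77.0, 97.7 and 58.5 in the libraries labelled *Mtgr1*-/-. The highest labelled library was several times below the lowest WT library, with a log2 fold change of -3.40 (SE 0.20, adjusted p = 4.33e-05). *Ascl2* fell least of the 9, from 242, 298 and 216 to 91.0, 66.4 and 87.1, a log2 fold change of -1.62 (SE 0.20, adjusted p = 0.000505). *Dach1* had 564, 510.3 and 534 in WT, and 5.83, 4.74 and 7.72 in enteroids with the label, which is near the limit of counting, as the latter rest on 5, 5 and 7 reads. The log2 fold change of *Dach1* was -6.26 (SE 0.23, adjusted p = 7.99e-06).

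*Olfm4*, the most abundant of the 9 in WT enteroids, was at the edge of detection in those labelled *Mtgr1*-/- at day 1. WT libraries held 43254, 38689 and 17576 normalized counts and labelled libraries 7.0, 10.4 and 9.93, from 6, 11 and 9 reads. The ratio of summed reads, corrected for library factors, was 3519.9, with a 95% exact binomial interval of 2402 to 5389 that covers counting error only. Its log2 fold change was -11.59 (SE 0.33, adjusted p = 4.72e-06). *Smoc2* went from 3974, 4754 and 3529 to 358, 558 and 357, a log2 fold change of -3.29 (SE 0.19, adjusted p = 4.19e-05). *Gkn3* had 123, 168 and 69.6 in WT and 2.33, 9.48 and 3.31 in the labelled libraries, which rest on 2, 10 and 3 reads. Its ratio of summed reads was 21.9, with a counting interval of 13.1 to 39.5, and its log2 fold change -4.42 (SE 0.52, adjusted p = 0.000446).

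The channel genes followed the same direction. *Aqp4* had 2088, 2226 and 1222 normalized counts in WT and 54.8, 79.7 and 82.7 in the labelled enteroids at day 1, a log2 fold change of -4.63 (SE 0.26, adjusted p = 3.56e-05). *Slc14a1* had 366, 477 and 357 against 7.0, 8.53 and 8.82 (log2 fold change -5.45, SE 0.22, adjusted p = 1.25e-05). The labelled means were 3.92% of the WT mean for *Aqp4* and 2.03% for *Slc14a1*. The co-receptor gene *Rgmb*, at 1901, 2168 and 1452 against 352, 454 and 353, retained 21.0% of the WT mean, with a log2 fold change of -2.24 (SE 0.17, adjusted p = 0.000105). Only *Ascl2*, at 32.3%, kept a larger share among the 9.

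At day 3, 9 of 9 genes were again lower without overlap, beside 29.1% of 12782 genes called lower, 29.9% called higher and 34.2% with every labelled library below every WT library. Their median log2 fold change was -4.47, against 0.0026 over all genes, and all 9 were called in each of the 15 alternatives. *Lgr5* had 2326, 1847 and 1412 normalized counts in WT and 105, 75.6 and 68.5 in the libraries labelled *Mtgr1*-/-, and its log2 fold change was -4.47 (SE 0.22, adjusted p = 7.02e-06). *Olfm4* had 83227, 76332 and 67570.4 against 102, 112 and 203 (log2 fold change -9.14, SE 0.23, adjusted p = 1.91e-06). Its labelled libraries were thus above their day 1 level while staying 543-fold below the WT mean.

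Among the transcription factors at day 3, *Ascl2* had 365, 511 and 402 in WT and 158, 68.6 and 111 in the labelled enteroids, a log2 fold change of -1.97 (SE 0.29, adjusted p = 0.000762). *Dach1* had 849, 813 and 738 against 13.7, 13.9 and 16.8 (log2 fold change -5.67, SE 0.16, adjusted p = 1.91e-06). The former kept 26.4% of the WT mean and the latter 1.85%. *Smoc2*, at 8032, 7843 and 7672 against 943, 485 and 931, had a log2 fold change of -3.38 (SE 0.23, adjusted p = 2.42e-05). *Gkn3*, at 409.6, 443 and 365 against 45.5, 31.8 and 41.5, had one of -3.33 (SE 0.18, adjusted p = 1.03e-05). In both, the second labelled library was the lowest of its group.

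*Aqp4* at day 3 stood at 3542, 3389.8 and 3168 in WT and at 55.8, 149 and 111 in the labelled libraries, a log2 fold change of -5.09 (SE 0.31, adjusted p = 1.40e-05). *Slc14a1* stood at 1317, 1119 and 1004 and 20.5, 12.9 and 28.1, a log2 fold change of -5.79 (SE 0.26, adjusted p = 6.34e-06). Relative to its lowest value, *Aqp4* spread over the widest range of the 9 genes among the labelled day 3 libraries. *Rgmb* was the most even of the 9 within the labelled group, at 522, 496 and 492 against 3749, 3554 and 2754 in WT, a log2 fold change of -2.72 (SE 0.12, adjusted p = 5.96e-06).

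**Figure D2:**
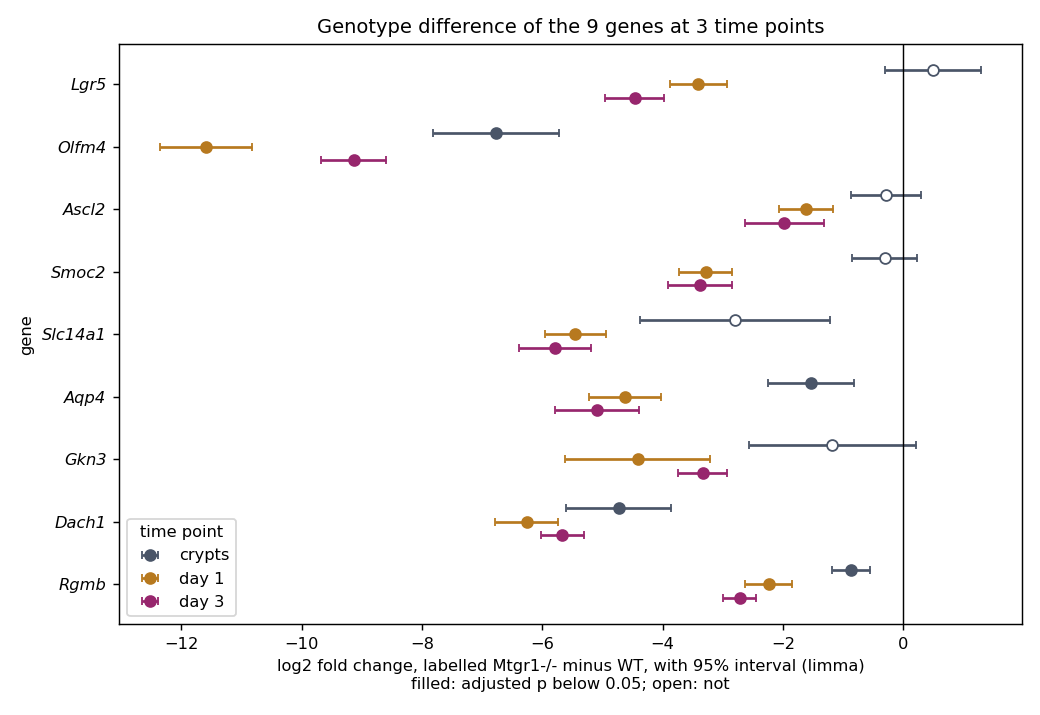
Log2 fold change of each gene (labelled *Mtgr1*-/- minus WT, limma) with its 95% interval in crypts, at day 1 and at day 3, from 3 libraries per genotype. Filled points passed an adjusted p of 0.05; in crypts 4 of 9 did, and in enteroids all 9, with *Olfm4* farthest from 0 at each time point.

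Whether the genotype difference itself changed between time points was asked of the 18 libraries together, in 1 limma model on a common scale with the mouse as a random effect, over 12955 genes. From crypts to day 1, the difference moved further down for all 9 genes, beside 19.9% of all genes. The largest shift was in *Olfm4*, at -4.81 (SE 0.57, adjusted p = 0.000256), followed by *Lgr5*, at -3.89 (SE 0.41, adjusted p = 0.000146), whose crypt difference had the opposite sign. *Gkn3*, *Aqp4*, *Smoc2* and *Slc14a1* shifted by -3.22, -3.08, -2.97 and -2.64, with adjusted p between 0.000275 and 0.00762. *Dach1*, *Rgmb* and *Ascl2* shifted least, by -1.5, -1.36 and -1.32. All 9 shifts were below 0 in each of 14 alternatives, though *Slc14a1* and *Ascl2* lost the call without WT mouse 2 and *Slc14a1* without labelled mouse 1. *Dach1* lost it under quantile normalization, with -1.05 (adjusted p = 0.0533).

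From crypts to day 3, 8 of 9 differences moved down, beside 13.5% of all genes. *Lgr5* shifted most, at -4.94 (SE 0.41, adjusted p = 6.11e-06), and *Dach1*, at -0.89 (SE 0.37, adjusted p = 0.0756), did not pass the test. *Aqp4*, *Smoc2* and *Slc14a1* shifted by -3.53, -3.05 and -2.96, and *Olfm4*, *Gkn3*, *Rgmb* and *Ascl2* by -2.35, -2.13, -1.82 and -1.66. Without WT mouse 1 the count of genes called fell to 6 of 9. The *Gkn3* call was kept in 10 of 14 alternatives. Between day 1 and day 3, 0 of 9 differences passed the test in either direction, beside 0.00772% of all genes lower and 0.0232% higher. At an unadjusted p below 0.05, 2 of 9 did, *Lgr5* at -1.05 (SE 0.41, adjusted p = 0.519) and *Olfm4* at 2.46 (SE 0.57, adjusted p = 0.108), and over all genes 387 were lower and 647 higher. No count tool was run on this model. The 95% interval for *Olfm4* was 1.3 to 3.67, and without labelled mouse 2 its change of 2.68 was called (adjusted p = 0.0307).

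The same model gave the change with time within each genotype, on the common scale of the 3 tables. In WT, *Lgr5* had means of 281 in crypts, 804 at day 1 and 1743 at day 3, with changes of 1.51 (SE 0.29, adjusted p = 0.000506) and 1.09 (SE 0.29, adjusted p = 0.0342). Both steps went up in 3 of 3 mice. *Slc14a1*, *Smoc2* and *Rgmb* also rose from crypts to day 1, by 1.33, 0.88 and 0.60, making 4 of 9 genes beside 26% of all genes. From day 1 to day 3, *Gkn3*, *Lgr5*, *Smoc2* and *Rgmb* rose, by 1.76, 1.09, 0.88 and 0.80, again 4 of 9, beside 2.79% of all genes. The other 5 had values above 0 in 3 of 3 mice, with adjusted p between 0.0729 and 0.243. Leaving out WT mouse 2 left only *Lgr5* called for the first step. For the second, leaving out WT mouse 1 left 0 genes, and leaving out WT mouse 2, WT mouse 3 or labelled mouse 1 left only *Rgmb*. The *Gkn3* call was kept in 6 of 12 alternatives. Between WT crypts and day 1, 7088 of all 12955 genes tested were called in either direction, 26% of all genes as higher. Markers of other cell types moved over this step as well. Of immune markers tested, 9 of 9 fell, with a median of -4.78. Among the others, 7 of 10 enterocyte markers fell and 11 of 12 cycling cell genes rose, with medians of -1.40 and 0.75. Their part in these changes was not tested.

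In the mice labelled *Mtgr1*-/-, 8 of 9 genes fell from crypts to day 1, beside 20% of all genes. *Olfm4* fell by 4.92 on the log2 scale, from a mean of 339 to 8.87 (adjusted p = 2.60e-07), and *Lgr5* fell by 2.38, from 418 to 75.6 (adjusted p = 1.44e-05). In single mice the *Lgr5* change was -2.48, -2.65 and -2.0, and that of *Olfm4* -6.16, -4.83 and -3.77. *Aqp4*, *Gkn3* and *Smoc2* fell, with log2 changes of -2.76, -2.71 and -2.09, each in 3 of 3 mice. *Slc14a1*, *Dach1* and *Rgmb* fell, with -1.31, -0.95 and -0.76, though *Slc14a1* in 2 of 3 mice only, a call kept in 3 of 12 alternatives. The *Dach1* call was kept in 9 of 12, and was lost with quantile normalization and without labelled mouse 1 or labelled mouse 2. *Ascl2*, at -0.69 (SE 0.27, adjusted p = 0.0544), did not pass the test. Over the same step 6 of 9 immune and 8 of 8 tuft cell markers tested fell in the labelled mice, with medians of -3.20 and -3.76, and their part was not tested.

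From day 1 to day 3, 4 of 9 genes rose in the labelled enteroids, beside 6.99% of all genes. *Olfm4* rose by 3.68 (SE 0.40, adjusted p = 0.000697), with 3.64, 3.24 and 4.17 in the 3 mice, and *Gkn3* by 2.86 (SE 0.51, adjusted p = 0.00544). *Dach1* rose by 1.12 (SE 0.26, adjusted p = 0.0145) and *Smoc2* by 0.80 (SE 0.25, adjusted p = 0.0462), the latter in 2 of 3 mice. These calls were kept in 8 and 5 of 12 alternatives. *Lgr5* had a log2 change of 0.044 (adjusted p = 0.933), with 0.39, -0.43 and 0.17 in single mice and a 95% interval of -0.57 to 0.66. Means of *Lgr5* in the labelled enteroids were 75.6 and 77.6, whereas *Olfm4* went from 8.87 to 130.5 and *Gkn3* from 4.91 to 37.1. Without labelled mouse 1 or labelled mouse 3, only *Olfm4* was called, and without WT mouse 1 only *Olfm4* and *Gkn3*.

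**Figure D3:**
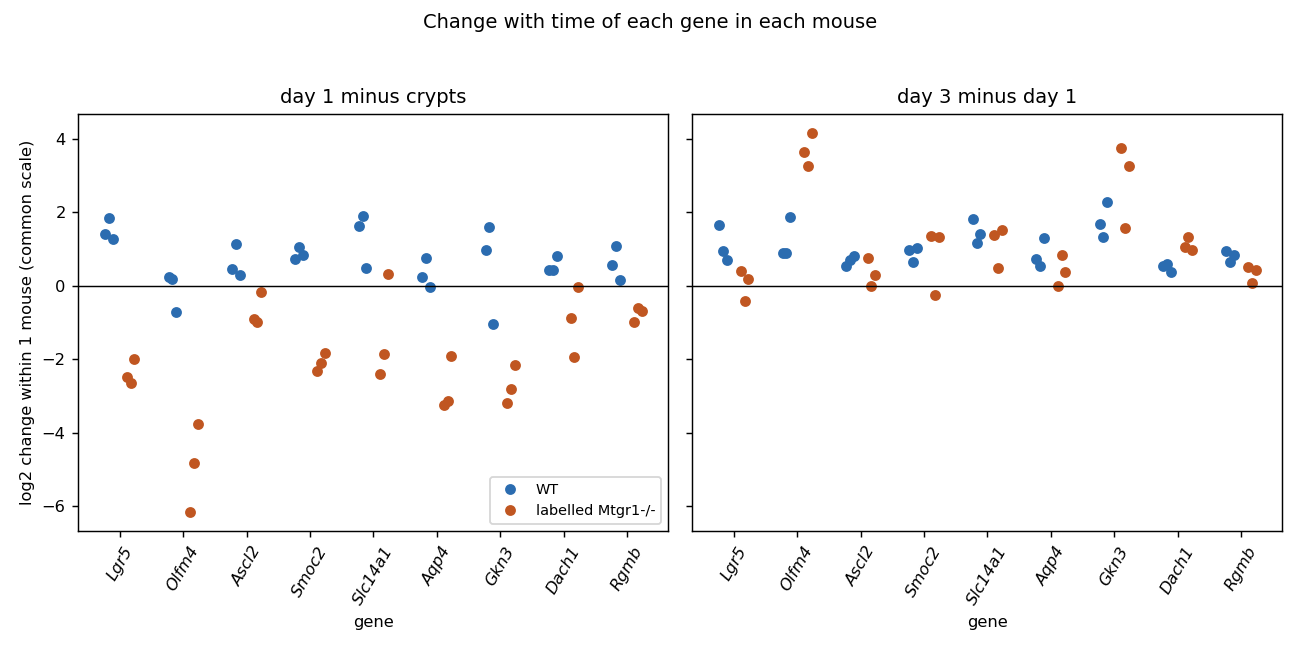
Log2 change of each gene within each mouse, from crypts to day 1 (left) and from day 1 to day 3 (right), on the common scale (blue WT, orange labelled *Mtgr1*-/-, 3 mice each). In the left panel every labelled value is below 0 except 1 of *Slc14a1*, and in the right panel *Olfm4* and *Gkn3* hold the highest labelled values.

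The count of each gene relative to *Lgr5* in the same library does not depend on the scaling between libraries. It is given as a description, without a test. In WT crypts, *Olfm4* counts were 136, 136 and 86.8 times those of *Lgr5*, and in crypts labelled *Mtgr1*-/- 1.32, 0.526 and 0.630 times. At day 1 the same ratio was 59.6, 42.3 and 21.5 in WT and 0.0909, 0.107 and 0.170 in the labelled libraries, and at day 3 35.8, 41.3 and 47.8 and 0.978, 1.49 and 2.97. The genotypes were thus set apart for *Olfm4* at each time point, most of all at day 1.

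*Dach1* per *Lgr5* was 1.55, 1.5 and 0.903 in WT crypts and 0.0267, 0.0338 and 0.0337 in the labelled ones, a narrow range in the latter although *Lgr5* itself ranged from 211 to 562. *Aqp4* per *Lgr5* was 6.51, 5.20 and 3.74 and 1.22, 1.14 and 1.33, also narrow in the labelled crypts, and overlapped between genotypes at day 3 (1.52, 1.84 and 2.24 against 0.533, 1.97 and 1.62). *Rgmb* per *Lgr5* turned over: it was lower in labelled crypts, at 1.60, 1.11 and 2.43 against 4.73, 4.04 and 3.91 in WT, and higher in labelled enteroids, at 4.58, 4.65 and 6.04 against 2.62, 2.37 and 1.78 at day 1 and 4.99, 6.57 and 7.18 against 1.61, 1.92 and 1.95 at day 3. *Ascl2* per *Lgr5* turned the same way, from 0.393, 0.217 and 0.413 against 0.644, 0.534 and 0.525 in crypts to 1.18, 0.680 and 1.49 against 0.334, 0.326 and 0.265 at day 1. *Smoc2* per *Lgr5* did so as well, without overlap in crypts, at 4.17, 3.91 and 5.41 against 8.79, 9.08 and 5.86, and at day 3, at 9.01, 6.42 and 13.6 against 3.45, 4.25 and 5.43. At day 1 it overlapped between genotypes, at 4.65, 5.71 and 6.11 against 5.48, 5.20 and 4.32. *Gkn3* per *Lgr5* was 0.0680, 0.117 and 0.0769 against 0.229, 0.216 and 0.432 in crypts and 0.435, 0.421 and 0.607 against 0.176, 0.240 and 0.258 at day 3, again with the order turned over and an overlap at day 1.

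**Figure D4:**
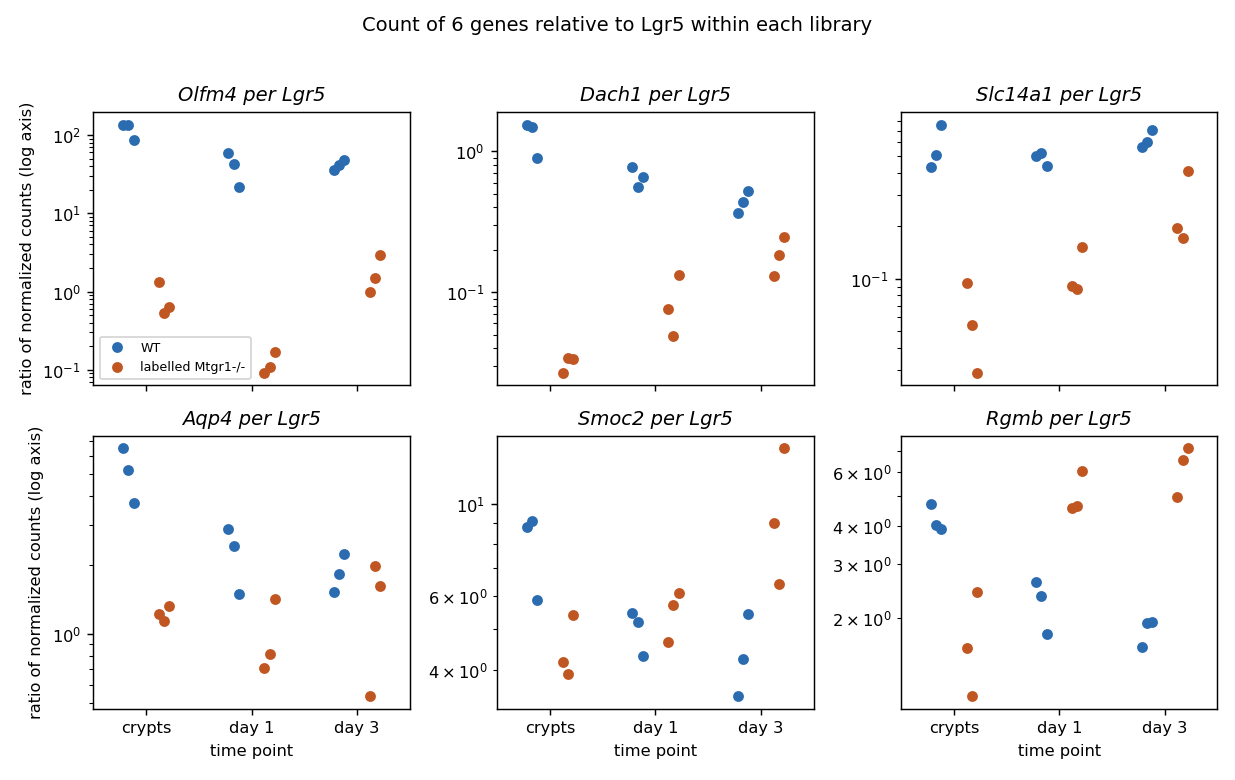
Ratio of the normalized count of 6 genes to that of *Lgr5* in the same library, on logarithmic axes, by time point (blue WT, orange labelled *Mtgr1*-/-; each point 1 library). *Olfm4*, *Dach1* and *Slc14a1* stay below the WT ratios at every time point, while *Rgmb* lies below them in crypts and above them at day 1 and day 3.

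The order of levels per kilobase was rearranged in the labelled libraries. In crypts labelled *Mtgr1*-/-, *Smoc2* led at 238 ± 75.8 (SD, n = 3) normalized counts per kilobase, overlapping *Olfm4* at 106 ± 64.2, with *Rgmb* at 76.5 ± 8.28 and *Lgr5* at 37.7 ± 17.1, while *Slc14a1* at 6.11 ± 4.05 and *Dach1* at 1.66 ± 0.841 came last. At day 1, *Smoc2* (61.0 ± 16.6), *Rgmb* (50.4 ± 7.65) and *Ascl2* (50.2 ± 8.15) overlapped one another and lay above the other 6 genes, with *Olfm4* at 3.08 ± 0.626, the seventh of 9. By day 3 *Olfm4* stood at 47.0 ± 18.8, overlapping *Rgmb* (65.6 ± 2.15) and *Gkn3* (46.3 ± 8.23). In WT, *Olfm4* held the first and *Smoc2* the second place at all 3 time points, and *Lgr5* stood at 79.8 ± 9.21 at day 1 and 181 ± 44.5 at day 3.

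The 9 genes were set beside 4 lists of related genes. A wider crypt base signature of 28 other genes, such as the Wnt target *Axin2* and the RNA-binding protein gene *Msi1*, had 0 genes called lower and 1 higher in crypts, *Nav1* at 0.91 (SE 0.14, adjusted p = 0.0169). At an unadjusted p below 0.05, 6 were lower and 3 higher with limma, edgeR called 0 and DESeq2 2 lower and 1 higher. Its median log2 fold change was -0.039 in crypts, -1.3 at day 1 and -1.33 at day 3. In enteroids, 23 of 28 were lower at each day and 0 higher, 0 also being higher at an unadjusted p below 0.05 with limma and with both count tools. *Tnfrsf19*, a receptor of the tumour necrosis factor family, fell most, with log2 fold changes of -3.81 at day 1 and -3.87 at day 3. *Axin2* had -3.25 and -3.28, and *Msi1* -3.11 and -3.83.

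Genes around *Lgr5* and *Rgmb* in their pathways were called in both directions in enteroids, in numbers to be read against the shares over all genes. Of 12 genes of the R-spondin and Wnt receptor module, 10 were tested, and 0 were called in crypts, where 1 was lower and 1 higher at an unadjusted p below 0.05 with limma, edgeR called 0 and DESeq2 called 1 lower. At day 1, 4 were lower and 4 higher, with *Tcf7*, a Wnt-responsive transcription factor gene, at -1.43 (SE 0.18, adjusted p = 0.000596) and the ubiquitin ligase gene *Znrf3*, which removes Wnt receptors, at -1.23 (SE 0.13, adjusted p = 0.000316) on the lower side, and *Tcf7l2* at 0.57 (SE 0.13, adjusted p = 0.00615) on the higher. At day 3, 3 were lower and 2 higher, led by *Tcf7* at -1.38 (SE 0.23, adjusted p = 0.00162). Over all genes, 28.9% were called lower and 30% higher at day 1, and 29.1% and 29.9% at day 3, so the 3 lower and 2 higher of 10 at day 3 were near the background. *Lgr4*, the close relative of *Lgr5*, had log2 fold changes of 0.28 (SE 0.25, adjusted p = 0.605), 0.04 (SE 0.12, adjusted p = 0.786) and -0.0012 (SE 0.076, adjusted p = 0.990) at the 3 time points. Of 16 BMP receptors and effectors, 14 were tested. In crypts 0 were called by limma, edgeR or DESeq2, with 1 lower and 1 higher at an unadjusted p below 0.05. At day 1 and day 3 alike, 2 were lower and 7 higher of the 14, beside the same shares over all genes, with the inhibitory Smad genes *Smad6* (1.69 and 1.96) and *Smad7* (1.48 and 1.54) and the BMP-responsive gene *Id2* (1.35 and 1.07) among those that rose.

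Genes of dividing cells moved in the same direction as the 9 in enteroids. Of 12 such genes, 0 were called in crypts by limma, edgeR or DESeq2, with 0 also at an unadjusted p below 0.05, and a median log2 fold change of -0.16. At day 1, 11 were lower, with a median of -1.14, and at day 3 all 12, with a median of -1.0. *Mcm2*, a subunit of the replicative helicase, had log2 fold changes of -1.5 and -1.23, and *Top2a*, a topoisomerase gene, -1.38 and -1.17. Each of the 9 crypt base genes fell by more than any of these 12 genes at the same day, although *Ascl2*, at -1.62, was close to *Mcm2* at day 1. Summed over the 12, normalized counts at day 1 were 64179 to 65013 in WT and 25985 to 37709.8 in the labelled libraries, and the part of cell division in the results above was not tested.

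**Figure D5:**
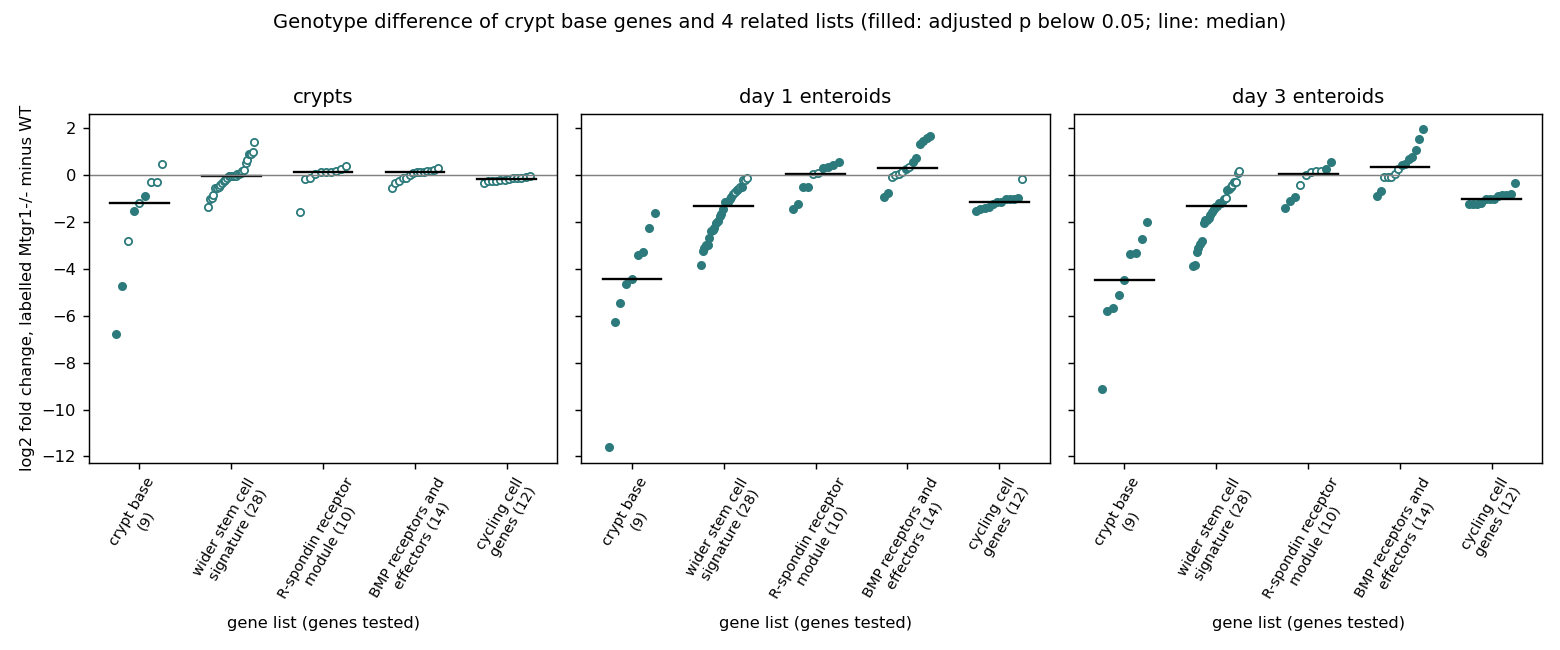
Log2 fold changes (labelled *Mtgr1*-/- minus WT, limma) of the 9 crypt base genes and of 4 related lists in crypts, at day 1 and at day 3, each point 1 gene sorted by value, filled where the adjusted p was below 0.05, and each line the median of the list. The crypt base median is -1.18 in crypts, -4.42 at day 1 and -4.47 at day 3, below the medians of the other lists each time.

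Markers of other epithelial cell types moved between the genotypes too, and their part in the results above was not tested. Goblet cell markers were lower at each time point, 7 of 7 tested, and enteroendocrine markers were lower in crypts (9 of 9), at day 1 (8 of 9) and at day 3 (10 of 10). Of 10 Paneth cell markers, 0 were called in crypts with a median of -4.81, although 9 were lower at an unadjusted p below 0.05 (edgeR and DESeq2 called 0), and 9 were lower at day 1 and at day 3. Their summed normalized count was 238138 to 312550.2 in WT crypts and 43490.4 to 175455 in the labelled ones, and 69946 to 84436 against 2179.6 to 12058 at day 1. Goblet markers summed to 151469.8 to 174223 in WT and 4766 to 7710.4 in labelled crypts, and enteroendocrine markers to 7529.6 to 12624 and 291 to 462. Enterocyte markers rose, 9 of 10 at day 1 and at day 3, with *Sis*, a brush border enzyme gene, lower in crypts and at day 1. In crypts the enterocyte list summed to 585639 to 721966 in WT and 388366 to 709742 in the labelled libraries. At day 1 it summed to 276998 to 366380.4 in WT and 533719 to 839711 in the labelled libraries. Tuft cell markers had a median of 1.83 in crypts, with 1 of 8 called higher, *Gfi1b*, while 7 of 8 were higher at an unadjusted p below 0.05, DESeq2 called 5 higher and edgeR called 0. Of 7 tested in enteroids, 5 were lower at day 1 and at day 3.

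Markers of cells outside the epithelium were summed in the same way. Immune markers summed to 84.4 to 401 normalized counts in WT and 37.9 to 459.9 in the labelled libraries at day 1, and to 18.8 to 33.9 and 47.7 to 336 at day 3. Fibroblast markers summed to at most 267 in any enteroid library, and endothelial markers to at most 120.0. Enteric glia markers, which include the epithelially expressed receptor gene *Erbb3*, summed to 6312 to 8769 in WT and 7479 to 8117 in labelled crypts. In enteroids the glia list was higher in the labelled libraries without overlap, at 8789 to 11833 against 4479.9 to 5540.3 in WT at day 1 and 8413 to 11027 against 5061 to 5630.1 at day 3, and its part in the results above was not tested. In crypts, 0 of 10 immune, 0 of 2 fibroblast, 0 of 3 endothelial and 0 of 3 enteric glia markers tested were called by limma or edgeR. At an unadjusted p below 0.05, 2 immune markers and 1 fibroblast marker were lower, and DESeq2 called 3 and 1 lower. In enteroids, the markers called by limma were *Vim* (lower at both days) and *Pdgfrb* (higher at day 1) of the fibroblast list, *Egfl7* (lower at both days) of the endothelial list, *Csf1r* (higher at both days) of the immune list, and *Erbb3* (higher at both days) and *Cryab* (higher at day 3) of the glia list. At day 3, edgeR and DESeq2 each called 0 of 2 fibroblast and 0 of 2 endothelial markers. Of 8 epithelial markers, 1 was higher in crypts, 4 were higher and 1 lower at day 1, and 5 higher and 1 lower at day 3.

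Over the 18 libraries, the genes whose log2 level followed *Lgr5* most closely, among 11156 genes averaging 50 or more normalized counts, were *Cttnbp2* (r = 0.969), *Bmp7* (0.961), *Ptpro* (0.957), *Mettl14* (0.954) and *Scn2b* (0.953), the last of which is in the wider signature. Those closest to *Olfm4* were *Mcf2l* (0.989), *Hspg2* (0.985) and *Slc1a3* (0.979). The libraries fall into 6 groups and share mice, so these Pearson correlations describe the ranking of genes and carry no p.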

How the data were processed

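Bulk RNA was read from duodenal crypts and enteroids of 3 WT mice and 3 mice labelled *Mtgr1*-/-, and samples were grouped by the genotype and time point in their labels. Per the methods of the study, libraries were made with a stranded mRNA kit and read as single reads of 50 bases, trimmed with fastp 0.20.0 and counted on transcripts with Salmon 1.3.0, and genes were tested with DESeq2 1.26.0. Each table of a time point holds, per the file headers, 1 normalized count per gene and library (a signal: gene counts that the authors divided by 1 DESeq2 size factor per library), so each time point was scaled on its own. The tables also hold results that the authors computed with DESeq2 and deposited: mean normalized counts, log2 fold changes with standard errors, test statistics (a score), and p-values with adjusted p-values, none of which was used. Salmon assigns reads shared by near-identical copies between genes by probability, which can move counts between paralogs.

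The 9 genes were matched by symbol. They and the other gene lists were chosen with earlier results of these data known. All 9 genes, *Cbfa2t2*, up to 4 called genes of each other list with the largest changes, and the genes most correlated with *Lgr5* (5) and *Olfm4* (3) are named. Some further list genes (*Lgr4*, *Epcam*, *Vil1* and the called markers of cells outside the epithelium) were named after their values were seen.

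Within each time point, genes with a mean of at least 10 normalized counts were tested with limma 3.58.1 in R 4.3.3 (trend, two-sided, Benjamini-Hochberg) on log2(normalized count + 1), 3 against 3 libraries. The study used a count test, which the unit of the deposited values does not allow as the main test. Changes of the genotype difference and changes with time came from 1 limma model of all libraries, after the tables were put on a common scale by median ratios over 9871 genes, with the mouse as a random effect (correlation 0.00914). Levels per kilobase divide by the merged exon length of the GRCm38 annotation. In all 18 libraries, 100% of values were whole multiples, within 0.01, of what 1 read is worth. This gave the reads per gene in 16 of them, as in the other 2 that worth was too close to 1. In those 16, edgeR 4.0.16 and DESeq2 1.42.0 were run as alternatives, without WT crypt library 2 and the second labelled day 3 library. Intervals of read ratios cover counting error only. Other alternatives were pseudocounts of 0.1 and 8, no filter, other scalings, no trend, no mouse effect, a replicate block, and each library or mouse left out. The fits were tested on simulated data.

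Replicate numbers in the labels name mice, and each number links the 3 time points of a mouse. Between genotypes, the correlation of deviations of same-numbered libraries was 0.0764, 0.274 and 0.346 in crypts. It was 0.116, 0.231 and 0.216 at day 1, and -0.00666, -0.00226 and -0.0156 at day 3. Only at day 1 were all 3 above 0.1. The main genotype tests did not pair libraries by number at any time point, day 1 included. Such pairing entered only as the replicate block among the alternatives. The p-values of the genotype tests measure the spread between these mice. Those of the joint model rest on a spread pooled over both genotypes and all time points. A change with time in WT thus draws on the labelled libraries too, and the reverse.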

Additional observations from a re-analysis of the deposited data

Results flagged for a closer look

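The difference between genotypes was not the same at all time points for most of the 9 genes, by the test of the change itself (limma, 18 libraries, 3 mice per genotype, Benjamini-Hochberg over 12955 genes). From crypts to day 1, the log2 fold change of *Lgr5* moved by -3.89, with the labelled mice falling and the WT mice rising in 3 of 3 mice each. That of *Olfm4* moved by -4.81. The channel genes *Aqp4* and *Slc14a1* moved by -3.08 and -2.64, the secreted factors *Smoc2* and *Gkn3* by -2.97 and -3.22, and *Ascl2*, *Dach1* and *Rgmb* by -1.32, -1.50 and -1.36. Adjusted p lay between 0.000146 (*Lgr5*) and 0.0131 (*Ascl2*).

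From crypts to day 3, 8 of 9 genes differed in the same way. *Lgr5* moved by -4.94, *Aqp4* by -3.53, *Smoc2* by -3.05 and *Slc14a1* by -2.96. *Olfm4* moved by -2.35, *Gkn3* by -2.13, *Rgmb* by -1.82 and *Ascl2* by -1.66. Adjusted p lay between 6.11e-06 (*Lgr5*) and 0.0360 (*Gkn3*). The *Gkn3* call was kept in 10 of 14 alternatives, and was lost without WT mouse 1, WT mouse 2, labelled mouse 1 or labelled mouse 2.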

How the results depend on the processing

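All 9 genes were called lower at day 1 and at day 3 under each of 15 alternatives. In crypts, 2 to 4 genes were called when 1 library was left out (2 without WT library 1), and 3 to 5 under the other alternatives, with *Olfm4* and *Dach1* called in all 15. *Rgmb* lost its call without WT library 1 (adjusted p = 0.0886), and *Slc14a1* gained one with a pseudocount of 8 (0.0494) and with DESeq2 (0.00948). Leaving out 1 mouse gave 7 to 9 genes for the change of the difference from crypts to day 1 (7 without WT mouse 2), 6 to 9 from crypts to day 3 (6 without WT mouse 1), 1 to 6 rising genes in WT from crypts to day 1, 0 to 6 from day 1 to day 3, 6 to 8 falling genes in the labelled mice, and 1 to 4 rising there from day 1 to day 3. Quantile normalization left 2 of these last 4. The cause was not tested.

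Uncalled values near 0 turned their sign. The WT change of *Olfm4* from crypts to day 1 was 0.051 without a common scale, 0.23 after quantile normalization and -0.28 to 0.20 with 1 mouse left out, and that of *Gkn3* -0.043 to 1.28. The *Lgr5* change in labelled mice from day 1 to day 3 was -0.25 after quantile normalization and -0.13 to 0.28 with 1 mouse left out, and the change of the *Smoc2* difference between those days -0.35 to 0.45.

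Over all genes, 614 were called in crypts, against 176 without WT library 1, 211 without WT library 2, 310.0 without labelled library 1, 379 without labelled library 3, 209 with edgeR and 1200.0 with DESeq2. Changes of the difference numbered 4 from day 1 to day 3 (48 with a pseudocount of 8, 17 after quantile normalization, 9 with the replicate block, 0 to 1064 with 1 mouse left out), 4004 from crypts to day 3 (1794 without WT mouse 2) and 5158 from crypts to day 1 (3388 without WT mouse 2). Changes with time numbered 1004 in WT from day 1 to day 3 (89 to 2268 with 1 mouse left out), 1867 in labelled mice (1105 after quantile normalization, 40.0 to 5142) and 4875 there from crypts to day 1 (2828 without labelled mouse 1).

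With the mouse number as a replicate block, all genotype calls of the 9 genes were kept, 4 in crypts and 9 at each later day. The falls of the labelled mice from crypts to day 1 then numbered 7, *Slc14a1* being lost (-1.31, adjusted p = 0.0570), and the rises to day 3 numbered 3, *Smoc2* being lost (adjusted p = 0.0505). With 3 mice per genotype and labelled day 1 levels of a few reads, folds of *Olfm4*, *Dach1*, *Slc14a1* and *Gkn3* there are loosely bounded.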
